A study of Mus musculus with 24 samples.

Results

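Hybridization signals of microRNAs (miRNAs) were compared between mouse liver left for 96 h at room temperature and liver placed into RNA stabilization reagent at once (0 h), in total RNA that kept its small RNAs and was isolated without the optional DNase digestion. The comparison rests on 6 of the 24 arrays of the series, chosen by their labels. There were 3 arrays at 0 h and 3 arrays at 96 h, and each of the mice numbered 7, 9 and 10 gave 1 array to either group. The parts of a liver were therefore paired by animal. Every mouse had its own slide, read in its own scan, so these 3 cannot be told apart, but each held both storage times. The labels gave the tissue as liver and named no strain, age, allele or agent for these animals, and the tissue was left on the bench after removal, so the groups describe excised tissue and not living liver. No DNase was used on either group, so DNA left in the extract was open to hybridization in both. Of the remaining 18 arrays, 6 carried DNase-treated RNA of the same storage times and enter only where named. The remaining arrays carried RNA depleted of small RNAs, either untreated or taken through an incubation without or with RNase.

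MicroRNAs are short RNAs that bind to complementary sites in messenger RNAs, mainly through the seed at their 5′ end, and reduce the output of those messengers. Most are cut from a hairpin whose 5p and 3p arms can each yield a mature strand, and usually a single arm is retained in the cell by an Argonaute protein. In liver, miR-122 of the hepatocyte dominates the pool, with the let-7, miR-29 and miR-30 families, miR-192, miR-194 and miR-21 beside it. The array used here measures each miRNA by short probes read in a single colour (Cyanine 3), so a signal says how much labelled RNA stuck to those probes and not which molecule it was. Signals of different miRNAs come from different probes and are not amounts that can be set against each other.

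The mature sequences on which the results turn are given first, from RefSeq (GRCm38.p6), 5′ to 3′, with the seed (bases 2 to 8) in capitals. The 4 that follow had the highest signals at 0 h among those with a sequence here and were lower at 96 h.
mmu-miR-6366: aGCUAAGGggcccggggagcca
mmu-miR-3963: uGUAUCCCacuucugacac
mmu-miR-3968: cGAAUCCCacuccagacacca
mmu-miR-5100: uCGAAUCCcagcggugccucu
The letters AUCCCA, searched for after the values were seen, stand in miR-3963, miR-3968 and miR-5100 and in 7 of the 1608 miRNAs of the array with a RefSeq sequence, 0.435%. A further set shows the liver and let-7 miRNAs, which were lower at 96 h and of which the let-7 members share a seed.
mmu-miR-21a-5p: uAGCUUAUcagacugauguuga
mmu-miR-192-5p: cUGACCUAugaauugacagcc
mmu-miR-194-5p: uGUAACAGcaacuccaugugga
mmu-let-7a-5p: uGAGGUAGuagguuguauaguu
mmu-let-7d-5p: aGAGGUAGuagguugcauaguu
mmu-let-7e-5p: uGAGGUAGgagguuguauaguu
mmu-let-7f-5p: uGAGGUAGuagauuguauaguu
mmu-miR-103-3p: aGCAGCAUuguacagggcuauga
mmu-miR-126a-3p: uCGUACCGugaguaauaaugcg
mmu-miR-451a: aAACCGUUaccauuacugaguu
The next set gives miRNAs with the largest increases or the highest signals at 96 h, which are mostly rich in G.
mmu-miR-6349: uGGAAUGUgggaggggcaugcg
mmu-miR-8109: gCGCCGCGugccggccgcggg
mmu-miR-8100: aGGAGGAAagggagcaagcaggu
mmu-miR-546: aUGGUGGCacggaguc
mmu-miR-1967: uGAGGAUCcuggggagaagaugc
mmu-miR-8110: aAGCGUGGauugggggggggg
mmu-miR-5126: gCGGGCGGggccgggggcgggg
mmu-miR-2861: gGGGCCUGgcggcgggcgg
mmu-miR-6538: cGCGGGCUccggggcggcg
mmu-miR-3082-5p: gACAGAGUgugugugucugugu
mmu-miR-1224-5p: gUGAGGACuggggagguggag
The last set holds both arms of hairpins whose arms are compared below.
mmu-miR-7047-5p: uGAGGGAGgagggcugggucuga
mmu-miR-7047-3p: uCACCCUCacccuuccuccuucc
mmu-miR-6937-5p: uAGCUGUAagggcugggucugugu
mmu-miR-6937-3p: uCACAGGUucccccuugcacuag
mmu-miR-125a-5p: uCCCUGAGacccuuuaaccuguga
mmu-miR-125a-3p: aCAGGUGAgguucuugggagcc
mmu-miR-99b-5p: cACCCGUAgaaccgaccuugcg
mmu-miR-99b-3p: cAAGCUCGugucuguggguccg
mmu-miR-195a-5p: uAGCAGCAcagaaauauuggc
mmu-miR-195a-3p: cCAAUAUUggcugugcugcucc

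Stored liver lit up many more miRNA probes than fresh liver. The RNA integrity number in the labels was 8.8 on each 0 h array and 2.3, 2.3 and 2.5 on the 96 h arrays of mice 7, 9 and 10. The scanner software flagged 288, 273 and 342 of the array's 1881 miRNAs as detected at 0 h in the 3 mice, and 620, 599 and 651 at 96 h. The groups did not overlap, and the mean rose from 301 ± 36.3 to 623 ± 26.2 (SD, n = 3), by 322 miRNAs, with a two-sided exact permutation p of 0.1, the smallest that 3 arrays against 3 can give. With a miRNA counted as detected only where most of its spots were flagged well above background the difference was 266, and with a single signal level for all arrays it was 441.

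The gain was spread unevenly over the catalogue. The number in a miRNA's name rises broadly with the time of its naming, and miRNAs numbered below 300, let-7 included, were detected about as often at both times (121 ± 11 and 122 ± 8.5 per array, SD, n = 3, exact permutation p = 0.8). Those numbered 3000 and above went from 102 ± 15.1 to 345 ± 13.7 per array (SD, n = 3, exact permutation p = 0.1). They made up 33.8% of the detected miRNAs at 0 h and 55.3% at 96 h. The classes in between also rose without overlap, from 59.3 to 114 for numbers 300 to below 1000 and from 18.3 to 42 for 1000 to below 3000.

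**Figure D1:**
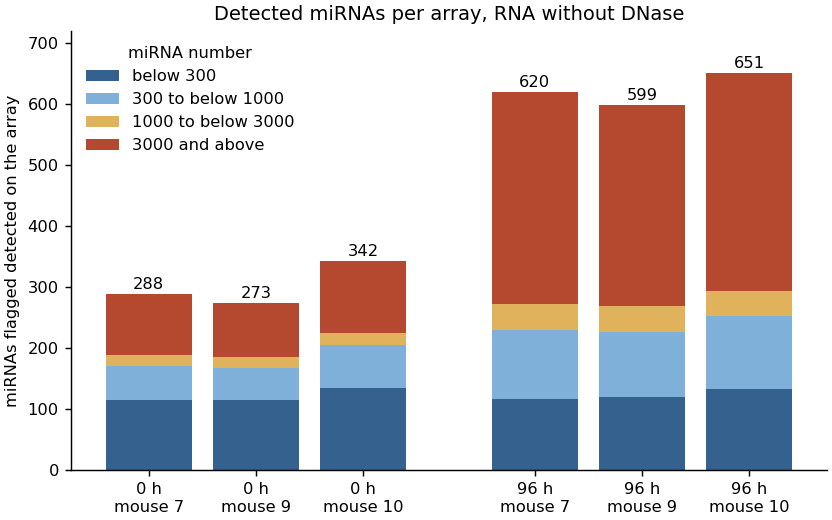
miRNAs flagged detected on each of the 6 arrays, stacked by the number in the miRNA's name, with the total above each bar. The 0 h arrays reach 273 to 342 and the 96 h arrays 599 to 651, while the lowest segment (numbers below 300) spans 115 to 134 at 0 h and 116 to 132 at 96 h.

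The summed signal of the detected miRNAs was 131979, 132195 and 163493 intensity units at 0 h in mice 7, 9 and 10, and 195914, 187378 and 260481 at 96 h. It was higher at 96 h in all 3 mice, by 0.58 on the log2 scale or 1.5-fold (exact permutation p = 0.1). The 4 control features named dmr_, which were taken here to be the spike-ins, gave 3136 ± 346 at 0 h and 3013 ± 270 at 96 h (SD, n = 3, exact permutation p = 0.7). The signal was also spread over more miRNAs. The 5 brightest miRNAs held 86.3 ± 1.34% of it at 0 h and 45.4 ± 3.8% at 96 h (SD, n = 3, exact permutation p = 0.1). The median signal of a detected miRNA was 9.59 at 0 h and 21.6 at 96 h.

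Fold changes depend on how arrays are brought to a common scale, and the values the authors deposited had been put through variance stabilizing normalization (vsn), a log2-like transform with a scale for each array. That scale was 3.31 times larger for the 0 h arrays than for the 96 h arrays, so a miRNA whose raw signal stayed level appears lower at 96 h in the vsn values. Raw signals are therefore given first below, and the change in vsn values, with its standard error and the adjusted p of limma, second. Within a group the arrays correlated at 0.964 to 0.982 at 0 h and at 0.965 to 0.983 at 96 h across the tested miRNAs, and between the groups at 0.301 to 0.401.

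Of the 631 miRNAs tested, 376 were higher at 96 h (59.6%) and 146 were lower (23.1%), at a limma adjusted p under 0.05 with a change of at least 1. The remaining 109 were not called. In vsn values all 376 and all 146 went the same way in the 3 mice, and the 2 groups of arrays did not overlap for 375 and 146 of them. The calls rest on these same arrays, so these counts add no support to them. The share without overlap over all 631 was not counted, and some lower miRNAs overlapped in raw signal. The median change over the tested miRNAs was 2.10. It was 3.35 without scaling between arrays, 3.31 with spike-in scaling, 1.05 and 0.14 with scaling to the 75th percentile of the miRNAs detected everywhere or of all miRNAs, 0.23 with quantile normalization and 0.12 with normexp background correction. The higher and lower calls then numbered 478 and 101 without scaling, 477 and 98 with spike-ins, 316 and 143 with the percentile of detected miRNAs, 215 and 189 with that of all miRNAs, 226 and 189 with quantiles, and 69 and 81 with normexp. None of the 376 or 146 miRNAs was called the opposite way under any of these scalings.

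**Figure D2:**
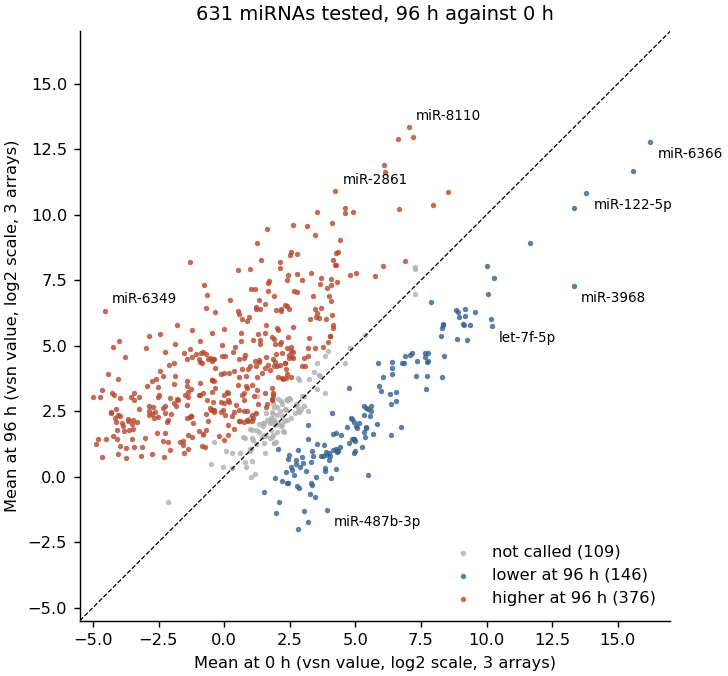
Mean deposited vsn value (log2 scale) at 0 h on the horizontal axis against 96 h on the vertical axis, 1 point per miRNA and 3 arrays behind each mean; the dashed line marks equal values. The 376 higher miRNAs lie above the line, up to a 0 h value of 8.53 for miR-494-3p, and the 146 lower miRNAs, with miR-6366 and miR-122-5p at the bright end, lie below it.

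Detection flags need no scaling between arrays, but they did not mark a single signal level. The lowest flagged signal of an array was 0.751 to 0.912 at 0 h and 1.42 to 1.62 at 96 h. There were 315 miRNAs flagged on none of the 0 h arrays and on all of the 96 h arrays, and 205 of these (65.1%) were numbered 3000 and above. The opposite pattern, flagged on all of the 0 h arrays and on none of the 96 h arrays, was found for 35 miRNAs. Of these, 19 (54.3%) were numbered below 300. Their mean signals at 96 h reached up to 5.05, so a missing flag does not mean that signal was absent. A further 206 miRNAs were detected on all 6 arrays, and 1139 on none. Among the 282 of the 315 that were tested, 244 were called higher and 38 were not called. Of the 206 detected on all 6 arrays, 84 were higher, with a raw signal 7.89 to 352 times that at 0 h (median 27.4), and 84 were lower, with raw signals at most 20 times apart (median 2.48) and below the 0 h level in 79 of them. The calls were made on vsn values, whose scale was 3.31 times larger at 0 h. A higher call therefore needed a larger raw difference than a lower call. These raw folds do not compare the sizes of increases and decreases.

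The brightest miRNAs of fresh liver lost signal. miR-6366 read 57326, 53289 and 64621 at 0 h in mice 7, 9 and 10 and 16586, 16556 and 20931 at 96 h. miR-3963 read 36039, 34303 and 42776 at 0 h and 6635, 10618 and 7749 at 96 h. For both, every 96 h array lay below every 0 h array, and their shares of the detected signal went from 41.1% to 8.45% and from 26.5% to 4.01%. In vsn values miR-6366 fell by 3.43 on the log2 scale (SE 0.53, limma adjusted p = 5.28e-06) and miR-3963 fell by 3.93 (SE 0.58, adjusted p = 3.52e-06), and both were also lower under each of the 6 other scalings.

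miR-3968 showed the largest decrease. Its signal was 7438, 7103 and 9032 at 0 h and 471, 422 and 299 at 96 h, 66.6-fold lower after vsn scaling. The vsn values fell by 6.05 on the log2 scale (SE 0.32, limma adjusted p = 1.82e-11), and the change lay between -7.70 and -4.27 under the other scalings. miR-5100, which shares the letters AUCCCA with it, read 6957, 7297 and 9290 at 0 h and 2632, 3070 and 3721 at 96 h, and fell by 3.06 (SE 0.46, adjusted p = 3.60e-06).

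A different set of miRNAs led the signal of stored liver. miR-8110 read 123, 72.1 and 111 at 0 h and 23478, 20608 and 36981 at 96 h, 263-fold higher before scaling. miR-5126 read 157, 76.8 and 113 at 0 h and 20788, 20674 and 19768 at 96 h, and miR-3960 read 102, 53.0 and 73.1 and then 15987, 23477 and 18856. These 3 miRNAs held 12.4, 9.74 and 9.31% of the detected signal at 96 h. Their vsn values rose by 6.29 (SE 0.57), 5.78 (SE 0.48) and 6.28 (SE 0.55), with limma adjusted p of 6.44e-09, 2.40e-09 and 4.10e-09, and they were higher under each of the other scalings.

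Among miRNAs detected on all 6 arrays the largest increase was that of miR-2861, which is encoded in a cluster with miR-3960 and has been studied in osteoblasts. It read 18.8, 9.90 and 13.5 at 0 h and 4737, 4911 and 4712 at 96 h, 352-fold higher before scaling and 106-fold after vsn scaling (change 6.64, SE 0.48, limma adjusted p = 4.60e-10). miR-6538 and miR-3082-5p followed, with changes of 6.57 (SE 0.43) and 6.41 (SE 0.46). miR-1224-5p, whose hairpin is a short intron, was the least even of the bright miRNAs at 96 h, with 2145, 1470 and 11622 against 202, 164 and 204 at 0 h. Its change of 2.40 (SE 0.60, limma adjusted p = 0.000969) was 1.61 without mouse 10 and 0.75 (adjusted p = 0.19) with scaling to the 75th percentile of all miRNAs.

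**Figure D3:**
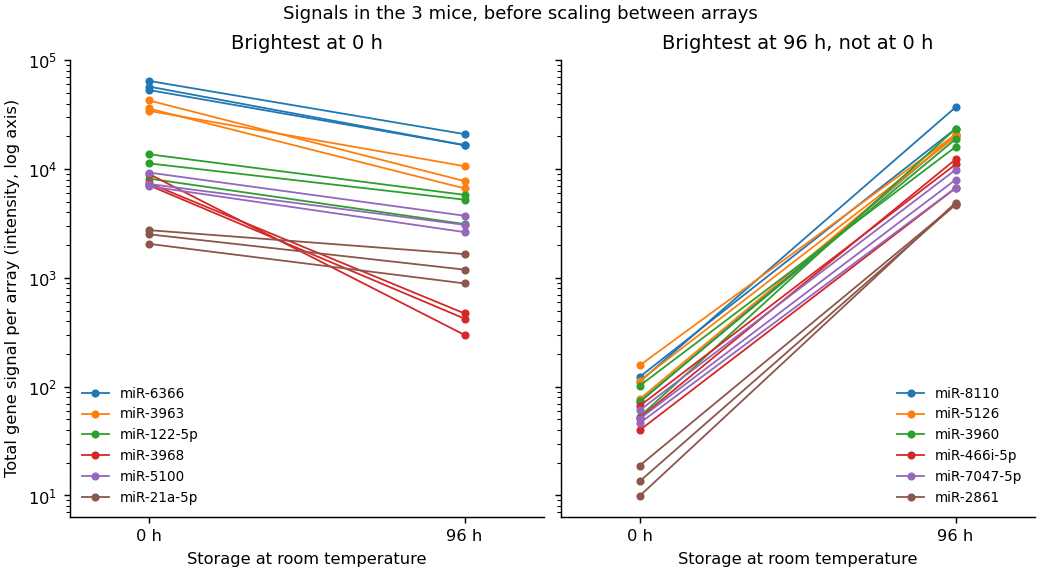
Total gene signal before scaling between arrays (log axis) at 0 h and 96 h, a line for each mouse, for 6 of the brightest miRNAs at 0 h (left) and 6 of the brightest at 96 h (right). Every line on the left goes down, with miR-3968 going from at least 7103 to at most 471, and every line on the right goes up, with miR-8110 reaching 36981.

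The largest increases in vsn values belonged to miRNAs that were at background in fresh liver, so only a lower bound of the fold can be given. miR-8109 was detected on no 0 h array and read 731, 579 and 927 at 96 h, at least 260-fold higher on the vsn scale (limma adjusted p = 6.92e-09). miR-6349 read 216, 186 and 208 at 96 h, at least 72.0-fold higher (adjusted p = 4.10e-10). The bounds were at least 32.3-fold for miR-187-5p, 27.1-fold for miR-8100, 13-fold for miR-546 and 20.8-fold for miR-1967, each with all 3 arrays detected at 96 h and none at 0 h. Changes of these 6 miRNAs were above 0 under each of the scalings tried. With normexp, miR-187-5p (0.84), miR-8100 (0.69), miR-546 (0.46) and miR-1967 (0.62) were under the minimum change of 1 and lost the call. The mirror image was rarer, and lower bounds on both sides do not show which changes were larger. miR-487b-3p, from the imprinted Dlk1-Dio3 locus, read 9.72, 11.1 and 11 at 0 h and was detected on no 96 h array, at least 23.4-fold lower on the vsn scale and at least 7.04-fold without scaling (adjusted p = 1.13e-10). miR-1949 and miR-6516-3p were likewise detected on all 0 h arrays and on no 96 h array. Their bounds were at least 13.5-fold and 9.88-fold lower on the vsn scale and 4.06-fold and 2.97-fold without scaling. With normexp, miR-487b-3p (-0.81), miR-1949 (-0.61) and miR-6516-3p (-0.54) also lost the call.

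The hepatocyte miRNAs that mark liver were detected at 0 h and fell with storage. Of 9 hepatocyte miRNAs on the array (both arms of miR-122, miR-192, miR-194 and miR-215), 5 were detected on all 0 h arrays, and these were the 5 tested. All 5 were lower at 96 h, 1 of which needed its 0 h detections to reach the minimum. Their median change was -3.28, between -4.63 and -1.50 under the other scalings, against 2.10 over all tested miRNAs. The 4 detected on all 6 arrays had a median of -3.13, against 0.12 over all 206 so detected. Of the 75 so detected and numbered below 300, 64 were lower. miR-122-5p, the most abundant miRNA of hepatocytes and a regulator of cholesterol and lipid metabolism, read 8176, 11277 and 13686 at 0 h and 3120, 5228 and 5788 at 96 h. The 2 groups did not overlap, and the vsn values fell by 2.98 (SE 0.49, limma adjusted p = 1.04e-05), or 2.37-fold before scaling. miR-192-5p and miR-194-5p, which are made from shared transcripts, fell by 2.73 (SE 0.33) and 3.28 (SE 0.37), and the former was at -0.99 without scaling and -0.94 with spike-ins, under the 2-fold limit. In whole tissue, fewer cells of a type and less RNA per cell cannot be told apart.

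The let-7 family, which restrains proliferation and marks differentiated cells, was lower in the members that could be tested. So were 64 of all 75 miRNAs numbered below 300, let-7 included, that were detected on all 6 arrays. All 9 tested of 10 on the array were lower, 7 of 7 among those detected on all 6 arrays, with a median change of -3.58 (between -5.24 and -1.90 under the other scalings). These 9 share the seed GAGGUAG, and no other tested miRNA with a RefSeq sequence had that seed. let-7f-5p read 678, 896 and 1140 at 0 h and 78.2, 90.7 and 340 at 96 h, and fell by 4.44 (SE 0.65, limma adjusted p = 2.89e-06). The steepest member was let-7e-5p, at 20.7, 31.3 and 57.3 at 0 h and detected at 96 h in mouse 10 alone. The least steep was let-7i-5p (-2.27, and -0.55 without scaling). The member that was not tested, let-7k, ran the other way: it was undetected at 0 h, read 11.1, 5 and 4.81 at 96 h and was detected there on 2 arrays. The mouse 10 array at 96 h held more let-7f-5p than the arrays of mice 7 and 9, though still less than any 0 h array.

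Members of other conserved families were lower as well. Of all 631 tested miRNAs 23.1% were lower, but of the 75 numbered below 300 and detected on all 6 arrays 64 were. The families named here are numbered below 300, so their counts are near that share. They are not read as results about single families. All 8 tested members of miR-29, which targets collagen messengers, and miR-30 were lower (median -3.22), as were all 7 of the miR-17-92 and miR-106b-25 clusters (-3.06), all 5 of miR-15/16 and miR-26 (-2.63), all 5 of miR-23, miR-24 and miR-27 (-3.34), all 5 of miR-99/100 and miR-125 5p arms (-3.59) and all 6 of miR-101, miR-148 and miR-152 (-2.45). The medians of these lists stayed below 0 under each of the 6 other scalings. Raw decreases were modest in several of them. Without scaling the medians were -1.50, -1.44, -0.90, -1.63, -2.12 and -0.80, in the order given. Among others, miR-15a-5p (-0.83), miR-16-5p (-0.90), miR-27b-3p (-0.72) and miR-101a-3p (-0.71) were then under the 2-fold limit. miR-125b-5p lost its call without scaling (-1.27, limma adjusted p = 0.0506). miR-29a-3p read 593, 769 and 1127 at 0 h and 202, 278 and 546 at 96 h, so its groups did not overlap, with 2.56-fold lower raw signals. miR-92a-3p (45.4, 57.0 and 93.4, then 31.7, 44.7 and 55.9), miR-26b-5p and miR-148a-3p overlapped between the groups in raw signal and were called only relative to the other miRNAs: without scaling their changes were -0.54, -0.79 and -0.74, with limma adjusted p of 0.183, 0.163 and 0.145.

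miRNAs tied to metabolism in liver split by 1 member. Of all 631 tested miRNAs 23.1% were lower, and of the 75 numbered below 300 and detected on all 6 arrays 64 were. Among 7 tested members of this list, 6 were lower and 1 was higher, with a median of -2.68. One of the 6, miR-378a-3p, named after its values were seen, was level in raw signal (43.7, 40.9 and 47.4, then 48.5, 38.4 and 63.8), and its vsn change of -1.56 was 0.16 without scaling and 0.22 with spike-ins. miR-21a-5p, a miRNA raised in liver injury and fibrosis, read 2054, 2515 and 2746 at 0 h and 889, 1190 and 1654 at 96 h and fell by 2.74 (SE 0.37, limma adjusted p = 1.09e-06). miR-103-3p, linked to insulin sensitivity, went from 67.1, 76.4 and 98.5 to 3.62, 5.66 and 22.8 and fell by 4.83 (SE 0.57). miR-370-3p, of the Dlk1-Dio3 locus, moved the opposite way, from 1.84, 2.67 and 1.70 to 347, 239 and 317 (change 4.99, SE 0.48, adjusted p = 1.28e-08). miR-22-3p had overlapping raw signals, with a mean of 793 ± 144 at 0 h and 717 ± 354 at 96 h (SD, n = 3), and its vsn change of -1.97 (SE 0.42) became -0.24 without scaling.

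miRNAs of other cells of the liver were lower too, as were 64 of the 75 miRNAs numbered below 300 and detected on all 6 arrays. All 7 tested endothelial and stromal miRNAs were lower (median -3.36), 3 of them detected on all 6 arrays, and their summed raw signal went from 429 to 759 at 0 h down to 95.0 to 172 at 96 h. miR-126a-3p, made from an intron of the endothelial gene Egfl7, read 349, 479 and 572 at 0 h and 72.4, 87.6 and 123 at 96 h, and fell by 4.03 (SE 0.41, limma adjusted p = 2.36e-08). Both tested red cell miRNAs were lower. miR-451a, which Argonaute 2 cuts in place of Dicer, read 272, 343 and 527 and then 197, 197 and 198, with vsn values that fell by 2.62 (SE 0.34), and its change without scaling was -0.89. Of the miR-200 family of biliary epithelium, 2 of 5 members were tested, both needing their 0 h detections to reach the minimum, and both were lower.

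Leukocyte miRNAs fell in 3 of 4 tested, against 64 of the 75 miRNAs numbered below 300 and detected on all 6 arrays. The summed raw signal of the list was 70.5 to 186 at 0 h and 20.5 to 72.9 at 96 h, ranges that overlap. miR-142a-3p, of all blood lineages, went from 36.8, 61.3 and 106 to 4.01, 4 and 14.1, and fell by 4.78 (SE 0.50, limma adjusted p = 3.83e-08). miR-155-5p, which rises in activated leukocytes, was detected on no 0 h array and read 12.9, 3.34 and 34.6 at 96 h. Its change of 1.20 (SE 0.47, adjusted p = 0.0231) lost the call without mouse 7 (1.06, adjusted p = 0.183) and without mouse 10 (0.90, adjusted p = 0.0897). Among 11 miRNAs of muscle, heart, brain and pancreas, 9 were detected on none of the 6 arrays. The exceptions were the muscle miRNAs miR-133a-3p and miR-206-3p, detected on no 0 h array and on all 96 h arrays, at 11.8, 9.65 and 13.7 for miR-133a-3p (change 1.29, SE 0.23, adjusted p = 3.18e-05, and 0.38 with scaling to the 75th percentile of all miRNAs) and at 21.6, 11.6 and 8.34 for miR-206-3p, which was not tested.

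**Figure D4:**
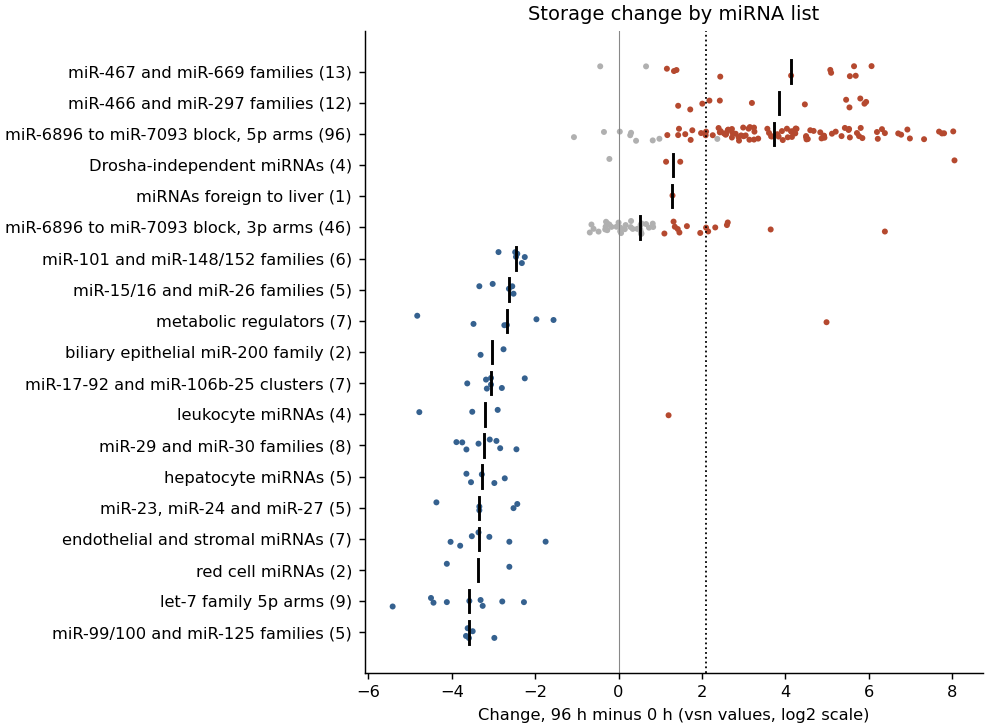
Change from 0 h to 96 h in vsn values (log2 scale) for each tested member of 19 miRNA lists, with the number tested in brackets; red points are called higher, blue lower and grey not called, the black bar is the list's median, the dotted line the median of all tested miRNAs (2.10). The liver, let-7 and conserved family lists lie between -5.42 and -1.56 apart from miR-370-3p and miR-155-5p, and the miR-466, miR-467 and 5p-arm lists lie mostly above 1.

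Part of the rodent families of the Sfmbt2 intron was higher at 96 h. Of 26 miR-466 and miR-297 members on the array 11 were detected on none of the 6 arrays and 12 were tested, and 6 of the 12 would have missed the detection minimum without their detections on the 96 h arrays, so that the count of higher members is partly set by the filter. The 5 detected on all 6 arrays were higher, with a median change of 2.18, against 84 of 206 over all miRNAs so detected. Of 35 miR-467 and miR-669 members 19 were detected on none of the 6 arrays and 13 were tested, 8 of which needed the 96 h detections, and the 3 detected on all 6 arrays were higher, with a median of 1.33. Of these families' calls, miR-466q (1.43), miR-669c-3p (1.39) and miR-669p-3p (1.16), named after their values were seen, had changes from -0.40 to 0.03 with the percentile of all miRNAs and with quantiles. miR-466i-5p read 51.6, 39.8 and 66.5 at 0 h and 12284, 6688 and 11039 at 96 h, and rose by 5.80 (SE 0.45, limma adjusted p = 1.16e-09). miR-669n was detected on no 0 h array and read 599, 302 and 403 at 96 h, with a vsn change of 5.69 (SE 0.38, limma adjusted p = 2.48e-10). miR-467f, at 10.4, 12.1 and 12.9 at 0 h and 66.3, 99.3 and 170 at 96 h, was called higher with a change of 1.33 (SE 0.45), but at -0.24 with scaling to the 75th percentile of all miRNAs, -0.11 with quantiles and -0.01 with normexp. Since many members of these families are near-identical, their probes can share targets, and the counts do not stand for independent molecules.

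miRNAs made without the usual Drosha cut gave a mixed result. miR-877-5p, from a short intron, was detected on no 0 h array and read 401, 460 and 339 at 96 h, at least 141-fold higher on the vsn scale (limma adjusted p = 9.28e-09). Its partner miR-877-3p read 5.08, 5.29 and 6.20 and then 54.1, 54.6 and 63.2 (change 1.48, SE 0.20), and its change was 0.04 with quantiles and 0.00 under the percentile of all miRNAs. miR-320-3p was called at 1.14 (SE 0.46, adjusted p = 0.0265), was at -0.36, -0.35 and -0.04 under the percentile of all miRNAs, quantiles and normexp, and lost the call without mouse 7 or mouse 9 (adjusted p = 0.0893 and 0.106). The remaining member, miR-484, was not called (change -0.22).

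The direction of change was divided by the number in the miRNA's name. Among miRNAs detected on all 6 arrays, which do not owe their place to the time at which they are high, 64 of 75 numbered below 300 were lower and 4 higher, with a median change of -2.91, and 8 of 84 numbered 3000 and above were lower and 52 higher, with a median of 1.81. The classes also hold miRNAs that needed their 96 h detections to reach the minimum, 10 below 300 and 110 at 3000 and above, and others that needed their 0 h detections, 15 and 1. With these, of 141 tested miRNAs numbered below 300, 100 were lower (70.9%) and 27 were higher (19.1%), with a median change of -2.73. Of 326 numbered 3000 and above, 12 were lower (3.68%) and 240 were higher (73.6%), with a median of 2.96. The medians of both classes kept their sign under each of the 6 other scalings, from -4.10 to -0.92 and from 0.19 to 3.8. The 12 lower miRNAs of the high-numbered class included miR-6366, miR-3963, miR-3968 and miR-5100, chosen for mention after their values were seen, and with them most of the raw signal of fresh liver. Of the 27 higher miRNAs numbered below 300, 18 were detected on no 0 h array and 4 on all 6 arrays. The brightest of these 27 at 96 h was miR-211-3p, which read 19, 7.6 and 13.2 at 0 h and 1892, 1851 and 2473 at 96 h (change 5.54, SE 0.46, limma adjusted p = 2.16e-09).

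Within the block from miR-6896 to miR-7093, most of which are named as pairs of arms, the calls divided by arm, a difference that was not tested. Of the 5p arms detected on all 6 arrays, 19 of 22 were higher, with a median change of 2.68. Of the 3p arms 2 of 11 were higher, with a median of 0.04. Over all miRNAs so detected 84 of 206 were higher, and 52 of 84 among those numbered 3000 and above. Among all 326 tested miRNAs numbered 3000 and above 73.6% were higher. Of 200 5p arms on the array, 96 were tested, 35 of which needed the 96 h detections to reach the minimum, and 87 were higher, with a median change of 3.74 (between 0.24 and 4.10 under the other scalings). Of 198 3p arms, 46 were tested, 24 of which needed them, and 14 were higher, with a median of 0.52 that fell below 0 with the percentile of all miRNAs (-0.70), quantiles (-0.75) and normexp (-0.04). No arm of the block was called lower. The summed raw signal of the 5p arms was 217 ± 55.7 at 0 h and 25473 ± 7548 at 96 h, and that of the 3p arms 124 ± 26.0 and 924 ± 145 (SD, n = 3). miR-7047-5p read 50.7, 46.2 and 60.7 at 0 h and 7980, 6708 and 9844 at 96 h, and rose by 5.52 (SE 0.49), while miR-7047-3p read 4.31, 2.54 and 5.50 and then 66.9, 55.7 and 78.2, and rose by 2.10 (SE 0.29), a call that was lost with the percentile of all miRNAs (0.70), quantiles (0.71) and normexp (0.17). miR-6937 gave the same contrast, with 5.21 (SE 0.47) for its 5p arm and 2.62 (SE 0.23) for its 3p arm.

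Across all hairpins, 87 had both arms tested. In 27 of them both arms were higher, in 14 both were lower, and in 7 the arms were called in opposite directions, which were looked at after their values were seen. In 5 of these 7 the 5p arm was lower and the 3p arm higher. miR-125a, a brake on several signalling pathways that lies in a cluster with miR-99b and let-7e, read 14.2, 20.1 and 40.7 for its 5p arm at 0 h and 2.39, 3.46 and 17.1 at 96 h. Its 3p arm read 3.72, 1.13 and 3.46 at 0 h and 776, 374 and 1412 at 96 h. The groups overlapped for the 5p arm in raw signal, though not in vsn values, and were far apart for the 3p arm, with changes of -3.50 (SE 0.69) and 6.07 (SE 0.56) and limma adjusted p of 8.56e-05 and 8.56e-09. miR-99b-5p was detected on all 0 h arrays and on no 96 h array, with a vsn change of -3.66 (SE 0.35), and miR-99b-3p the reverse, with a change of 3.23 (SE 0.25). For miR-195a the 5p arm, with overlapping raw signals, fell by 2.66 (SE 0.52) and the 3p arm, detected at 96 h alone, rose by 3.93 (SE 0.49). All these arms kept their direction under the other scalings. The remaining pairs were miR-139, miR-338, miR-677 and miR-7241, of which miR-7241-5p was at 0.46 without scaling and 0.52 with spike-ins in place of -1.23, and miR-338-5p was at 0.00 under the percentile of all miRNAs and under quantiles.

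Base composition separated the higher from the lower miRNAs. RefSeq gave 1 mature sequence for 526 of the 631 tested miRNAs (83.4%). The median share of G was 42.9% among 305 higher, 22.7% among 127 lower and 33.3% among all 526, and 45.5% and 23.8% among the higher and lower miRNAs detected on all 6 arrays, and the median length was 22 bases in each group. A run of GGGG stood in 30.2% of the higher and 3.94% of the lower miRNAs. It stood in 20.7% of all 526 and in 11.3% of the 1608 on the array with a sequence. miRNAs that were not called were rich in C instead, with CCCC in 45.7% of 94. CCCC stood in 11.1% of the higher, 3.15% of the lower, 15.4% of all 526 and 7.46% on the array. Letters were searched on the mature strand only.

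The share of higher calls was 30.6% among 124 miRNAs with under 20% G, 27.1% among 107 with 20 to below 30%, 60.4% among 96 with 30 to below 40%, 87.0% among 108 with 40 to below 50% and 93.4% among 76 with 50 to below 60%. It was 100% among the 13 with 60 to below 70%, a thinly filled bin. As a description across miRNAs, which share the same 6 arrays and probe chemistry, Spearman's rho between the share of G and the change was 0.62 (n = 526), 0.60 to 0.62 in the single mice, 0.51 to 0.58 under the other scalings and 0.45 among the 177 detected on all 6 arrays. It was 0.60 within numbers 3000 and above (n = 284) and 0.20 within numbers below 300 (n = 125). Of the 38 higher miRNAs with under 20% G, 27 held at least 40% C and 28 were 3p arms. The block's arms differed in the same measure, with a median G of 47.8% in the tested 5p arms and 13.6% in the 3p arms. The brightest miRNAs of stored liver, miR-8110, miR-5126 and miR-2861, held 66.7, 77.3 and 68.4% G, but miR-6366, which was lower, held 45.5%.

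**Figure D5:**
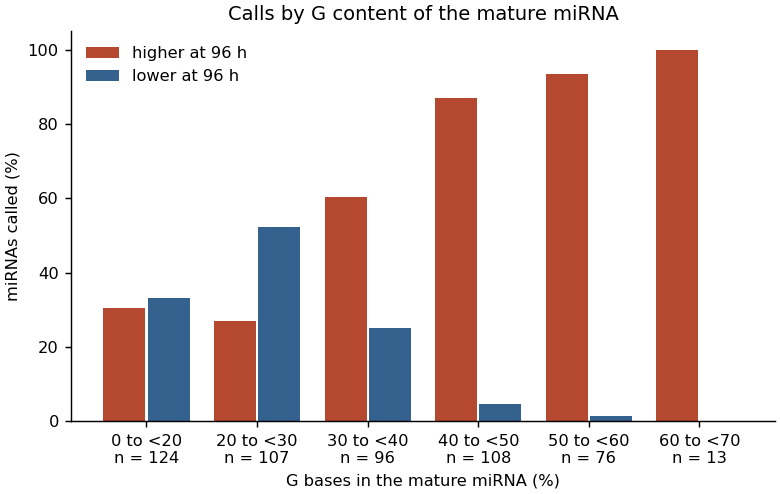
Share of tested miRNAs called higher (red) or lower (blue) at 96 h, by the share of G in the mature sequence, with the number of miRNAs under each pair of bars; the 2 miRNAs above 70% G are left out. The share of higher calls is 27.1 to 30.6% below 30% G and 87.0 to 100% from 40% G on. The bars include miRNAs that needed their 96 h detections to be tested.

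Most seeds carried by at least 3 tested miRNAs had their calls in a single direction. Of all 631 tested miRNAs, 59.6% were higher and 23.1% were lower, shares partly set by the detection filter. Of the 75 numbered below 300 and detected on all 6 arrays, 64 were lower. Apart from GAGGUAG of let-7, the seeds AGCAGCA (6 miRNAs of the miR-15/16 group), AAAGUGC (4, miR-20 and its relatives), ACCCGUA (3, miR-99/100), AGCACCA (3, miR-29), CAGUGCA (3, miR-148 and miR-152) and GUAAACA (3, miR-30) were carried only by tested miRNAs that were lower. The seed AGGAGAG, seen after the values were known and shared by miR-7057-5p, miR-8113 and miR-8119, was carried only by miRNAs that were higher. Higher calls were the majority among all tested miRNAs, so this is not read as a result about that seed. AUUGCAC (miR-25-3p, miR-92a-3p and miR-92b-3p) had 2 lower members and 1 that was not called. The seeds CCCUGAG and UGGGAAG each had members in both directions.

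The same storage comparison in DNase-treated RNA of the same livers allowed a test of the difference. Of the 315 miRNAs gained at 96 h without DNase, 241 had the same pattern with DNase. The same held for 20 of the 35 with the opposite pattern, 184 of the 206 detected on all 6 arrays and 1023 of the 1139 detected on none. How many of all miRNAs on the array were gained with DNase was not counted. On RNA depleted of small RNAs and incubated with RNase, 45 of the 315 (14.3%) were detected on all 6 arrays and 176 on none, while 242 of all 1881 miRNAs (12.9%) were detected on all 6. The storage change was larger without DNase for 6 miRNAs (0.951% of those tested) and smaller for 1 (0.158%) at a limma adjusted p under 0.05, with 90 at an unadjusted p under 0.05. No call was left without mouse 7 or without mouse 9, and without mouse 10 there were 12 and 25.

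miR-1943-3p had the smallest p. Without DNase it read 2.08, 1.6 and 2.35 at 0 h and 20, 21.1 and 21.2 at 96 h, and with DNase 2.12, 2.33 and 2.12 and then 5.04, 4.4 and 3.83, so the 96 h arrays of both treatments did not overlap. The difference of its changes was 2.12 (SE 0.34, limma adjusted p = 0.00303). Its change of 1.25 without DNase was 0.01 under the percentile of all miRNAs and 0.00 under quantiles. miR-467c-5p and miR-32-3p, a passenger strand, had the largest differences, 2.99 (SE 0.62, adjusted p = 0.0158) and 2.84 (SE 0.64, adjusted p = 0.0288), with changes of 4.14 and 5.08 without DNase and 1.15 and 2.24 with it. The single miRNA with the smaller change without DNase, miR-6402, was level in raw signal (11.5, 12 and 13.5, then 12.5, 11.7 and 12.7), while with DNase it went from 3.15, 6.77 and 7.92 to 34.7, 94.5 and 13. Its vsn change without DNase was -1.67 (SE 0.38), against 0.00 without scaling and 0.06 with spike-ins.

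For most of the miRNAs described above the difference between treatments did not pass. miR-3968 fell by 6.05 without and by 6.01 with DNase (difference -0.04, SE 0.45, limma adjusted p = 0.976). miR-3963 and miR-5100 fell by 3.93 and 3.06 without DNase and had vsn changes of -1.33 and -0.93 with it, where their mean raw signals were higher and uneven at 96 h (18267 ± 8243, then 41128 ± 42984, and 2944 ± 1394, then 7235 ± 6656, SD, n = 3). These differences, -2.60 (SE 0.83) and -2.12 (SE 0.64), had adjusted p of 0.112 and 0.0907.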

How the data were processed

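Groups came from the labels, and the animal number in the descriptions paired the arrays. For mouse 9 the labels of the RNase doses contradict each other; these arrays entered only the estimate of spread and the pooled RNase arrays. Per the file headers, the authors read the arrays with Agilent Feature Extraction 10.10.1.1. Its output gives intensity after background subtraction, unscaled between arrays, and says for every miRNA whether it was detected. The authors then put the 24 arrays through vsn, and these deposited values are on a log2 scale. Depth has no meaning here; the 3 arrays per group limit the precision.

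A miRNA's signal was its total gene signal where detected and otherwise the sum of its probes' total signals. With 5 detections among the 24 arrays as the minimum, 631 miRNAs were tested (the methods give another number for this minimum, and a minimum of 2 keeps 791) on the deposited log2 values with limma 3.58.1 in R 4.3.3, in a fit of 8 group means with a variance trend and no term for the mouse, with Benjamini-Hochberg adjustment within a comparison and a minimum change of 1. The methods' rank test cannot pass with 3 arrays against 3 and was an alternative. The fit was tested on simulated data in which 200 of 631 miRNAs changed, evenly up and down. It recovered 63 of 100 changes of 1.5 and 99 of 100 changes of 3, with 8 calls among 431 unchanged miRNAs. The simulation held no difference in scale between arrays and no detection floor, so it does not bear on those. Other alternatives were the scaling, the filter, the arrays fitted, a block for the mouse and leaving out each mouse. A bound ("at least") sets the detected group against the lowest detected signal of each array of the other group, or the miRNA's own value if higher. Per-array measures were compared by exact permutation, two-sided. The scanner files used here hold median and not mean spot signals, so normexp (offset 50) used the median. Sequences were matched by name to RefSeq. Python 3.11.15, numpy 2.4.6, pandas 2.3.3, scipy 1.17.1 and matplotlib 3.10.9 were used.

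The miRNAs and lists were chosen with earlier results of these data known. Named were the 6 largest increases and decreases among calls detected throughout at least 1 group, the 4 largest each way among those detected on all 6 arrays, the 8 brightest at each time, the 3 largest differences from the DNase-treated comparison each way, and up to 3 of the brightest members of each list.

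The same animals stand behind both storage times, so the replicate number pairs the arrays. After group means were removed, the 0 h and 96 h arrays of mice 7, 9 and 10 correlated at 0.189, 0.137 and 0.0467 across miRNAs.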

Additional observations from a re-analysis of the deposited data

Results flagged for a closer look

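The following miRNAs were picked out because their storage change differed between RNA without and with DNase by the test of that difference (limma, adjusted p under 0.05, 8 group means). The difference, without minus with DNase on the log2 scale of the vsn values, was 2.99 for miR-467c-5p, 2.84 for miR-32-3p, 2.12 for miR-1943-3p, 2.07 for miR-7047-3p, 1.61 for miR-877-3p, 1.47 for miR-1947-3p and -2.35 for miR-6402. The adjusted p ranged from 0.00303 for miR-1943-3p to 0.046 for miR-1947-3p. With the mouse as a block in the fit of 24 arrays miR-1947-3p lost the call (adjusted p = 0.0516) and the other 6 kept it. Of these 7, miR-1943-3p, miR-877-3p and miR-1947-3p had vsn changes below 0 with DNase (-0.87, -0.12 and -0.61) and above 0 without it, but their mean raw signals were higher at 96 h with DNase too (from 2.19 to 4.42, from 6.04 to 21.4 and from 5.07 to 12.6). All 7 lost the call without mouse 7 and without mouse 9, where the smallest adjusted p was 0.486 and 0.176. The 96 h arrays with DNase were uneven for miR-32-3p (27.6, 29.6 and 4.49 in mice 7, 9 and 10) and for miR-6402 (34.7, 94.5 and 13).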

How the results depend on the processing

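With normexp the higher and lower calls numbered 69 and 81, with no filter on dim miRNAs 604 and 550 of all miRNAs of the array, and with the exact rank test 0 and 0, since its smallest p is 0.1; 546 miRNAs were at an unadjusted p under 0.05 in limma. Higher calls numbered 226 with quantiles and 215 with the percentile of all miRNAs. With a replicate block for the mouse there were 378 higher and 147 lower calls in the fit of 24 arrays and 382 and 148 with the compared arrays alone, and the paired mean difference in detected miRNAs was 322 (exact sign-flip p = 0.25, the smallest for 3 pairs). Leaving out a mouse gave 356 to 371 higher and 144 to 147 lower calls, 318 to 329 more detected miRNAs and 0.54 to 0.62 in log2 total signal. The gain in detected miRNAs was 266 with spots well above background and 441 with a fixed level.

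The difference between storage without and with DNase was less stable. In place of 6 higher and 1 lower, there were 30 and 9 with the percentile of detected miRNAs, 24 and 39 with that of all miRNAs, 28 and 22 with quantiles, 23 and 13 without scaling, 23 and 11 with spike-ins, 6 and 0 with normexp, 18 and 2 without a filter, 25 and 5 with a minimum of 2 detections among the 24 arrays (chosen after seeing the data; storage calls then 472 and 158 of 791 tested), 17 and 2 with a filter at 3 of the 6 arrays, 14 and 5 with only the 4 small-RNA groups or only the compared arrays, 6 and 1 with the replicate block on 24 arrays, and 5 and 0 with it on the compared arrays. Leaving out a mouse gave 0 to 12 higher and 0 to 25 lower. The cause was not tested.

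Over 84 named miRNAs and 14 settings, 1105 of 1176 values kept direction and side of the threshold. The reversals were miR-6402 (0.06 with spike-ins), miR-320-3p (-0.36 with the percentile of all miRNAs, -0.35 with quantiles and -0.04 with normexp) and miR-467f (-0.24, -0.11 and -0.01 under the same 3). A signal near background on one side limits what a fold can say.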

Other observations

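Control features of the array whose target is not given in the sources used here also differed. Those named hur_1, hur_2 and hur_6 read 39912 ± 5774, 98615 ± 15284 and 8664 ± 3647 intensity units at 0 h and 1955 ± 423, 17515 ± 4394 and 736 ± 364 at 96 h (SD, n = 3), without overlap between the groups (exact permutation p = 0.1). The feature hur_4 read 4862 ± 2089 and 3179 ± 2474, with overlapping groups (exact permutation p = 0.5).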
